A study of Homo sapiens with 4 samples.

Results

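The genes described here make, recycle and break down uracil and thymine compounds. They were listed by name: the catabolic enzymes DPYD, DPYS and UPB1, the nucleoside phosphorylases UPP1 and TYMP, the kinases TK1, UCK1 and UCK2, thymidylate synthase (TYMS) and the last enzyme of de novo synthesis, UMPS. Probe sets were taken where the array annotation gives a single symbol and that symbol is on the list, and the gene value is the probe set chosen by its highest mean signal over all 4 arrays. That left 9 of the 10 listed genes, with 22 of 41091 single-symbol probe sets, among 19775 genes in all. The probe sets of UCK2 also carry a second symbol, so UCK2 has no gene value. DPYD was put on the list because its difference between the groups was already known, so its values are given as a description with no test.

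The cells were CAPAN2, an established human line of pancreatic ductal adenocarcinoma, grown with 10% serum and exposed overnight to lentivirus with 8 µg/ml hexadimethrine bromide. One group received control lentivirus, which the study's design describes as carrying control shRNAs, and the other lentivirus with shRNAs aimed at LLGL1, a regulator of apical-basal cell polarity. There were 2 arrays per group, and the labels call them biological replicates without naming separate cultures, so each p-value reflects only array-to-array spread, which may be technical. The sample titles write NC and siLLGL1 and not shRNA. Here these groups are called control and LLGL1 shRNA, after the study's design. The sources used here give neither the vector nor the shRNA sequences, nor the time between transduction and harvest. The comparison asked what depletion of LLGL1 does to expression in these cells.

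Pyrimidine nucleotides are needed for RNA, DNA and activated sugars. A cell can build them from small precursors through CAD, DHODH and UMPS, or salvage nucleosides through kinases and phosphorylases, and it can discard surplus uracil and thymine in the catabolic route that runs from DPYD through DPYS to UPB1. The same enzymes handle fluorouracil, a drug used against pancreatic cancer: DPYD inactivates most of a dose, UMPS, UPP1 and TYMP activate it, and TYMS is its main target.

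Array medians lay between 2.95 and 2.98 (log2). Across probe sets, which are features and no replicates, arrays correlated at 0.997 within groups and 0.992 to 0.993 between groups. The probe set that serves as the LLGL1 gene value read 6.83 and 6.86 on the control arrays and 6.73 and 6.71 on the arrays labelled LLGL1 shRNA, a log2 difference of -0.12 (limma adjusted p = 0.22). The other LLGL1 probe sets differed by 0.09 and 0.06, so the targeted transcript did not bear out the group labels, and each direction below is between the arrays as labelled. On the arrays labelled LLGL1 shRNA, 3 control probe sets for 18S ribosomal RNA were lower by a mean of -1.97 and 24 for poly-A spike RNAs by -1.14 (log2 differences). The part of these preparation signals in the gene differences was not tested. Epithelial and ductal markers, of which 1 (KRT7) rose and 2 (KRT19 and CDH1) fell, had mean log2 levels of 9.36 to 9.43 per array over 9 genes, whereas 7 of 10 myeloid and 5 of 10 hepatocyte markers lay below 3 on all arrays. Of the myeloid markers 0 passed limma's test (1 at an unadjusted p under 0.05), and of the hepatocyte markers 1 (FGB, by 1.97) rose and 0 fell. Among all genes, 3.21% rose and 3.07% fell, and 28.1% had an unadjusted p under 0.05 in limma's test. On all 4 arrays 31.8% of genes lay below 3, and no detection calls were used here.

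DPYD, dihydropyrimidine dehydrogenase, catalyses the first and rate-limiting step of uracil and thymine breakdown. Probe set 204646_at read 4.36 and 4.41 on the control arrays and 2.68 and 2.83 on the arrays labelled LLGL1 shRNA (log2 signal). Both control values lay above both others, by far more than the distance between replicates. The group means were 4.38 ± 0.0351 and 2.75 ± 0.104 (SD, n = 2 each), which makes the signal 3.09-fold lower, with a log2 difference of -1.63 and a 95% interval of -1.83 to -1.42. Only 1 of 19775 gene values had a lower difference. Because DPYD was listed for this difference, its interval and rank describe it and do not test it. In RNA from whole cultures, fewer cells with the transcript and less transcript per cell cannot be told apart.

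The other probe sets of DPYD read lower and carried smaller differences. Probe set 1554534_at gave 2.32 and 2.68 for control and 2.09 and 2.32 for LLGL1 shRNA, a difference of -0.29 with groups that touch at one value. Probe set 1554536_at gave 1.89 on both control arrays and 1.57 and 1.86 on the others, a difference of -0.18. The array annotation ties both to another sequence record than 204646_at, and both lay below 3 throughout. With the mean of all 3 probe sets as the gene value, the DPYD difference was -0.70. The signal of 204646_at on the arrays labelled LLGL1 shRNA was itself below 3, so the size of its fold depends on how background was handled. In the authors' deposited table of 294 probe sets, the ratio for DPYD was 0.324, and DPYD was the only listed gene in it.

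The sequence upstream of the DPYD start is shown because this gene had the largest difference of the list. Those of TK1, TYMS and UMPS are shown for the largest differences in the other direction among listed genes with a gene value. UCK2, which has no gene value, was left out. Each line gives the 250 bases before the RefSeq start that lies furthest downstream (build GRCh38.p14), 5′ to 3′ along the gene. DPYD lies at chr1:97921035-97921284 on the minus strand, TK1 at chr17:78187053-78187302 on the minus strand, TYMS at chr18:657403-657652 on the plus strand and UMPS at chr3:124730202-124730451 on the plus strand. Capitals mark the letters GGGCGG (the GC box read by SP1-type factors), CCAAT and TTCCCGC or TTGGCGC (letters typical of E2F sites), searched on both strands after the windows had been seen.
DPYD: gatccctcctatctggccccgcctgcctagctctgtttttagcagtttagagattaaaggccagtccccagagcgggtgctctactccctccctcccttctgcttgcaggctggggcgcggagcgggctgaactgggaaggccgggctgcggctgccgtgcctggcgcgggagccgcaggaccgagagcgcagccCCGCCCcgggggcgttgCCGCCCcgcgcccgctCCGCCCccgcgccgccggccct
TK1: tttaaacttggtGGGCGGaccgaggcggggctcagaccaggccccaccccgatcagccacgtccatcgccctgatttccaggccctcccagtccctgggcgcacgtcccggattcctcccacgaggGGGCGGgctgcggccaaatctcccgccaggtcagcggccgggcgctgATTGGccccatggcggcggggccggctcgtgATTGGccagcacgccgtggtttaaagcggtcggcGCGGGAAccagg
TYMS: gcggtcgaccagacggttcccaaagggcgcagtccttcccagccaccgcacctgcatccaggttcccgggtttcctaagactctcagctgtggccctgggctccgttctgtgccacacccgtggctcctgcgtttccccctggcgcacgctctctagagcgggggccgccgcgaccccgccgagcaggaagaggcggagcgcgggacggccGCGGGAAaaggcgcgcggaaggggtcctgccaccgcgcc
UMPS: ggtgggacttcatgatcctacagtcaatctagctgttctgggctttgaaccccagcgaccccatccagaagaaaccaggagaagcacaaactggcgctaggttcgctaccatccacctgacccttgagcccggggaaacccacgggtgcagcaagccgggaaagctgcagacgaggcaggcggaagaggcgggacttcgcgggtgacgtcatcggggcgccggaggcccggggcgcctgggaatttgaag

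The DPYD window held 3 GC boxes on the opposite strand, which begin 55, 38 and 22 bases before the start, and neither CCAAT nor either E2F-type form. The TK1 window held 2 GC boxes, 2 CCAAT letters on the opposite strand, beginning 77 and 46 bases before the start, and TTCCCGC on the opposite strand beginning 12 bases before it. The TYMS window held TTCCCGC on the opposite strand, beginning 39 bases before the start, and none of the other motifs. In the UMPS window none of these letters occurred. Different motifs overlapped in 0 places in these windows. Of 35116 windows of this length in the RefSeq table, 42.6% held the GC box, 32% CCAAT, 5.52% TTCCCGC and 2.56% TTGGCGC. A window was at hand for 9 of the listed genes, UCK2 among them and DPYS not. Of these 9, 6 held the GC box (DPYD, TK1, TYMP, UCK2, UPB1 and UPP1), with 5 copies in TYMP, 4 in UCK2 and 3 in UPP1, 4 held CCAAT, 2 held TTCCCGC and 0 held TTGGCGC. These matches describe letters only.

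**Figure D1:**
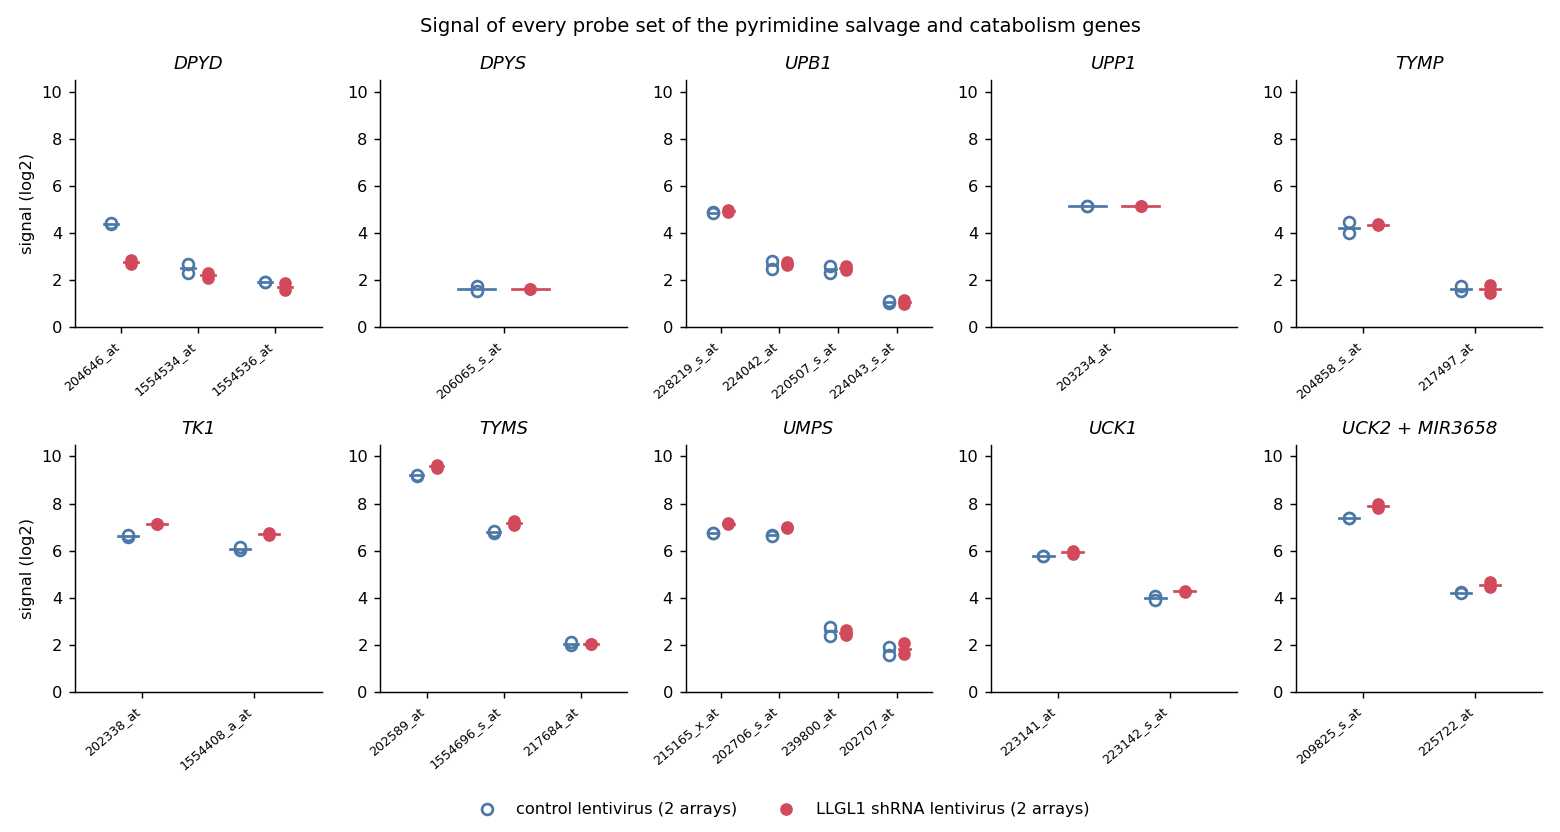
Log2 signal (vertical axis) of each probe set of the listed genes on the 4 arrays, with open circles for control lentivirus, filled circles for LLGL1 shRNA lentivirus and bars for group means. DPYD separates in probe set 204646_at, from 4.36 and 4.41 to 2.68 and 2.83, while UPP1 reads 5.12 to 5.14 on all arrays. The last panel holds the probe sets that carry the symbols of both UCK2 and MIR3658.

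The catabolic enzymes after DPYD did not show its difference. DPYS, dihydropyrimidinase, opens the ring that DPYD has reduced. Its single probe set read 1.73 and 1.54 on the control arrays and 1.64 on both others, with overlapping groups, a difference of 0.0028 (95% interval -0.23 to 0.24, limma adjusted p = 0.999). DPYS lay below 3 on all arrays, where a change could be missed. UPB1, beta-ureidopropionase, releases beta-alanine in the last step. The gene value of UPB1 read 4.88 and 4.82 against 4.99 and 4.90, a difference of 0.09 (-0.08 to 0.27, limma adjusted p = 0.429). The UPB1 arrays do not overlap, but the gap between the groups is smaller than that between replicates. The other 3 UPB1 probe sets lay below 3 and differed by 0.08, 0.04 and -0.01.

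Neither phosphorylase passed the test, and UPP1 was measured far more closely than TYMP. UPP1, uridine phosphorylase, splits uridine into uracil and ribose phosphate and is reported to let pancreatic cancer cells use uridine as a carbon source. UPP1 read 5.12 and 5.14 on the control arrays and 5.14 and 5.13 on the arrays labelled LLGL1 shRNA. The groups overlap, and the interval of the difference ran from -0.14 to 0.14 (limma adjusted p = 1), so log2 changes beyond 0.14 in either direction lie outside it. TYMP, thymidine phosphorylase, read 4.44 and 3.99 against 4.38 and 4.32. One control array of TYMP lay above and the other below both LLGL1 shRNA arrays, and the difference of 0.13 had a wide interval, -0.34 to 0.60 (limma adjusted p = 0.684). The sign of the TYMP difference turned when the second control array was left out, with values from -0.09 to 0.36 over the fits that leave out an array. The other TYMP probe set, below 3, differed by -0.02.

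Of TK1, UCK1 and TYMS, TK1 alone passed the test, and UCK2 was not tested. TK1, the cytosolic thymidine kinase that peaks in S phase, read 6.57 and 6.65 for control and 7.16 and 7.15 for LLGL1 shRNA. The groups are well apart, and TK1 rose by 0.54 (log2, SE 0.0577, 1.46-fold, limma adjusted p = 0.0349). Its second probe set, 1554408_a_at, read 6.04 and 6.15 against 6.73 and 6.66 and differed by 0.60, also without overlap. As the mean of both probe sets the TK1 difference was 0.57 (limma adjusted p = 0.0287).

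TYMS makes thymidylate from deoxyuridylate. It read 9.18 and 9.22 against 9.65 and 9.50, a difference of 0.38 (SE 0.0741, 1.30-fold, 95% interval 0.17 to 0.59) that did not pass the test over all genes (limma adjusted p = 0.067). Both LLGL1 shRNA values lie above both control values. Probe set 1554696_s_at showed the same order, 6.75 and 6.84 against 7.28 and 7.09, with a difference of 0.39. The third TYMS probe set, near 2 on all arrays, differed by -0.03. TYMS passed after cyclic loess (limma adjusted p = 0.035), with trend and robust priors (0.00257) and when genes under a mean log2 of 5 were left out (0.00251). Averaged over its probe sets it differed by 0.25 (limma adjusted p = 0.113). Its adjusted p over these and the remaining alternatives that keep all arrays ran from 0.00251 to 0.175.

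UMPS joins orotate to a ribose phosphate and decarboxylates it to UMP, and it activates fluorouracil in the same way. It read 6.74 and 6.76 for control and 7.14 and 7.17 for LLGL1 shRNA, with the groups far apart relative to their spread. UMPS rose by 0.40 (SE 0.0521, 1.32-fold, limma adjusted p = 0.0398). Its gene value comes from 215165_x_at, whose suffix marks probes that may also match other transcripts, but 202706_s_at showed the same order, 6.67 and 6.64 against 7.03 and 6.97, a difference of 0.34. The remaining UMPS probe sets, below 3, differed by 0.11 and -0.05, and with the mean of all 4 the difference was 0.20 and the call was lost (limma adjusted p = 0.212).

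UCK1 phosphorylates uridine and cytidine. It read 5.79 and 5.78 against 6.01 and 5.86, a difference of 0.15 (95% interval -0.05 to 0.35, limma adjusted p = 0.28), and 223142_s_at gave 0.29. The UCK1 groups do not overlap in either probe set. The paralogue UCK2, the more active of the pair, could be seen only through 2 probe sets that the annotation gives to both UCK2 and the microRNA gene MIR3658, and neither was tested as a gene. They read 7.41 and 7.39 against 7.97 and 7.81 for 209825_s_at, and 4.25 and 4.19 against 4.45 and 4.66 for 225722_at. Both have all LLGL1 shRNA values above all control values, with differences of 0.49 and 0.33. Separation in this direction was also seen in 27.7% of all genes.

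**Figure D2:**
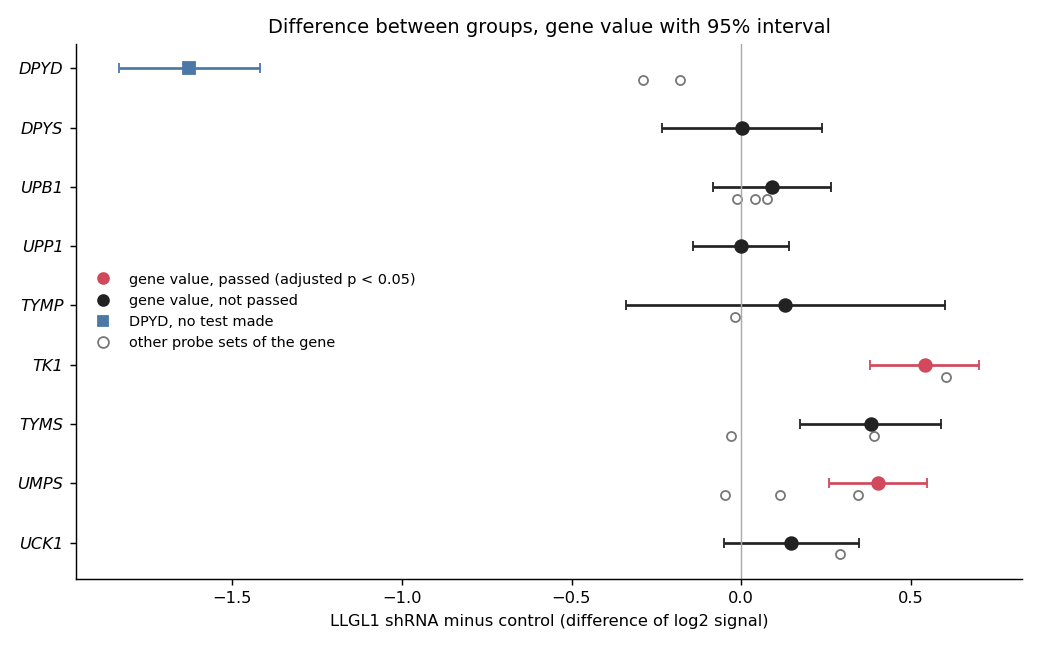
Difference of log2 signal, LLGL1 shRNA minus control (horizontal axis), for each listed gene, with limma's 95% interval around the gene value and open circles for its other probe sets. TK1 at 0.54 and UMPS at 0.40 passed the test, TYMS at 0.38 did not, UPP1 and DPYS sit at 0, and DPYD at -1.63 is shown without a test.

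Counted together, 2 of the 8 listed genes other than DPYD rose, 0 fell and 6 did not pass, beside 6.28% of all 19775 genes that passed, 3.21% higher and 3.07% lower. In 5 of the 8 all LLGL1 shRNA values lay above all control values and in 3 the groups overlapped. Of all genes, 27.7% were apart in that direction and 24.7% in the other. The median log2 difference over the 8 was 0.14, and over all genes 0.0121. A list of housekeeping genes, 8 with a gene value, had a higher median, 0.19. In that list 1 rose and 0 fell, and the groups were apart upward in 6 and downward in 1. Tested 1 probe set at a time, 0.83% of 41091 probe sets passed limma's test. For the 8 listed genes other than DPYD, 0 of 19 probe sets passed. Of these 19, 7 had an unadjusted p under 0.05, as had 24.1% of all 41091. The probe sets of TK1 then had adjusted p = 0.0543 and 0.0549, and the higher-reading pair of UMPS 0.0606 and 0.0735. Of the 22 probe sets of the list, 10 lay below 3 on all arrays, and a change in those could be missed.

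**Figure D3:**
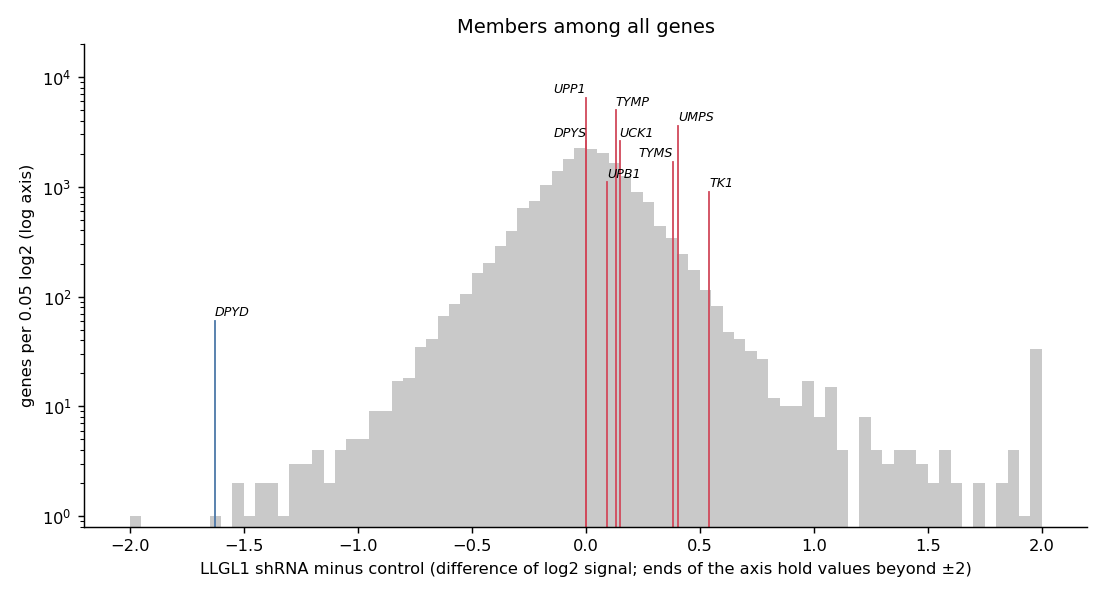
Number of genes (vertical log axis) by difference of log2 signal, LLGL1 shRNA minus control, in bins of 0.05, with the listed genes marked by lines whose heights only separate the names. DPYD lies far in the lower tail at -1.63, TK1, UMPS and TYMS on the upper flank at 0.54, 0.40 and 0.38, and the others near the centre.

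Genes beyond the list were taken from 6 lists of pyrimidine metabolism with 64 names, 58 of them with a gene value. Of these 58, 7 rose (12.1%) and 3 fell (5.17%), with a median log2 difference of 0.06. Over all genes 3.21% rose and 3.07% fell, and these shares stand beside the counts of each list below. The de novo list of 7 genes, which also holds PPAT of purine synthesis and the ribose phosphate donors' synthases, had 3 that rose and 0 that fell, and a median of 0.32. CAD, the enzyme of the first 3 de novo steps, read 6.07 and 6.03 against 6.86 and 6.69, without overlap, and rose by 0.73 (limma adjusted p = 0.0353), or by 0.41 when its probe sets were averaged (0.0307). PRPS1, which makes phosphoribosyl pyrophosphate, rose by 0.59 (limma adjusted p = 0.0345). CTPS1, which converts UTP to CTP, rose by 0.56 (limma adjusted p = 0.0456). DHODH, the mitochondrial step between CAD and UMPS, differed by 0.32 without passing (limma adjusted p = 0.154).

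Among 13 other salvage genes, 3 rose and 0 fell, with a median of 0.07. The nucleoside diphosphate kinases NME1 (log2 difference 0.67, limma adjusted p = 0.0331) and NME4 (0.46, 0.0453) rose, as did the mitochondrial UMP-CMP kinase CMPK2 (0.51, 0.0408), which started from 2.66 and 2.75 on the control arrays. DTYMK, the kinase that acts on the product of both TK1 and TYMS, differed by 0.39 (limma adjusted p = 0.0558). The deoxycytidine kinase DCK (-0.02), the mitochondrial thymidine kinase TK2 (-0.30) and the cytidine deaminase CDA (0.09) did not pass. Among 10 genes of ribonucleotide reductase and the folate cycle that feeds TYMS, RRM2 rose by 0.44 (limma adjusted p = 0.0467), while RRM1 (0.42) and MTHFD1 (0.35) missed the threshold (limma adjusted p = 0.0611 and 0.0592).

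Among nucleotidases and related enzymes, which strip phosphate from nucleotides, 3 of 13 fell and 0 rose, with a median of -0.05. Of all genes, 3.07% fell and 3.21% rose. The groups were apart downward in 6 of the 13 and upward in 4, beside 24.7% and 27.7% of all genes. NT5C3B (0.28) and DUT (0.25) were among those 4 and did not pass (limma adjusted p = 0.0611 and 0.0779). NT5E, the cell-surface 5′-nucleotidase, read 6.65 and 6.85 against 5.74 and 5.65 and fell by 1.06 on the log2 scale (limma adjusted p = 0.0318). Like DPYD, NT5E is in the authors' deposited table from these same arrays, so its call is no separate support. ENTPD4, which hydrolyses UDP in the Golgi apparatus, fell by 0.54 (limma adjusted p = 0.0397) but differed by -0.24 when its probe sets were averaged, and then missed the threshold (limma adjusted p = 0.2). NT5C2, a cytosolic nucleotidase, fell by 0.34 (limma adjusted p = 0.0493), and its mean over probe sets, -0.27, did not pass (0.0975). In the list of 8 further catabolic genes and relatives of DPYS, 0 passed limma's test and 4 had an unadjusted p under 0.05, as had 28.1% of all genes. The nearest to the threshold were DPYSL2 (-0.37, adjusted p = 0.0507) and ALDH6A1 (-0.50, adjusted p = 0.0588), a dehydrogenase that acts downstream of thymine breakdown. Of 7 nucleoside transporters 0 passed limma's test, 2 had an unadjusted p under 0.05, and the equilibrative transporter SLC29A1 came nearest, at 0.50 (limma adjusted p = 0.0626).

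S phase genes, a list that holds none of the enzymes above, stand beside TK1, TYMS and RRM2 because expression of these enzymes follows the cell cycle. Of 38 genes in that list, 27 rose and 1, the clamp loader subunit RFC5, fell, with a median log2 difference of 0.56. When probe sets were averaged, 22 rose and 0 fell, so the call of RFC5 as lower was lost. The list's mean log2 level was 5.94 and 5.96 on the control arrays and 6.52 and 6.46 on the arrays labelled LLGL1 shRNA. The replicative helicase subunits MCM5 (0.99) and MCM2 (0.95) and the replisome subunit GINS2 (0.93) had the largest differences (limma adjusted p = 0.0296, 0.0249 and 0.0246), and GINS2 gave 0.31 when its probe sets were averaged, which missed the threshold (0.0647). The difference of TK1, 0.54, lies close to that median, and those of UMPS and TYMS below it. The part of the cell cycle genes' shift in the TK1, TYMS and UMPS differences was not tested.

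**Figure D4:**
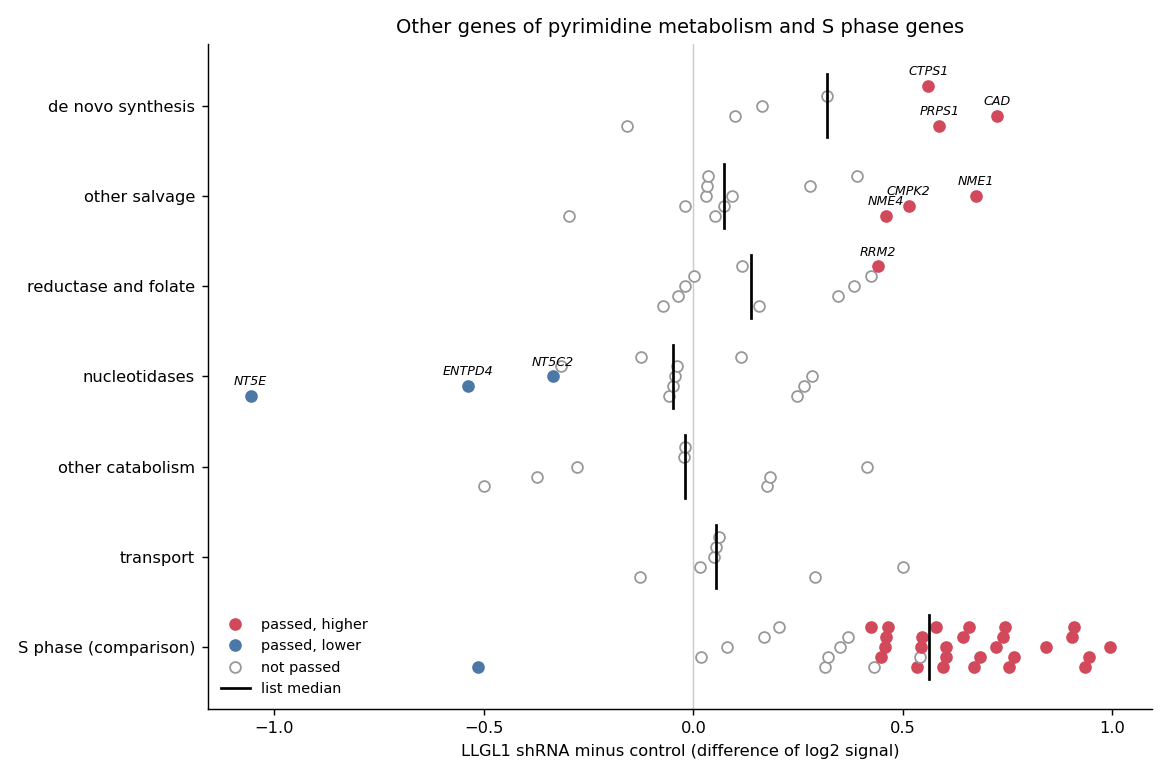
Difference of log2 signal, LLGL1 shRNA minus control (horizontal axis), for each gene of 6 pyrimidine lists and of the S phase list, filled where limma's test passed and with a bar at each list's median. De novo synthesis has its median at 0.32 with CAD, PRPS1 and CTPS1 passing, the nucleotidase genes that passed lie below 0, and the S phase list has its median at 0.56.

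Factors linked to DPYD were looked at as a list of 10. Of these, 1 rose and 0 fell, beside 3.21% and 3.07% of all genes, with a median of -0.09. All LLGL1 shRNA values lay below all control values in 7 and above them in 3. Of all genes, 24.7% and 27.7% did so. EZH2, a histone methyltransferase reported to repress DPYD in other human cells and itself a cell cycle gene, read 6.61 and 6.74 against 7.15 and 7.13 and rose by 0.46 (limma adjusted p = 0.0475). SP1 (-0.06) and SP3 (-0.27), which bind GC boxes, did not pass (limma adjusted p = 0.549 and 0.0893). JUN (-0.29), USF1 (-0.25) and SUZ12 (-0.17) read lower without overlap and did not pass either (limma adjusted p = 0.0795, 0.133 and 0.164). The part of these factors in the DPYD difference was not tested. DPYD is also known as part of a group of metabolic genes raised in mesenchymal-type human cancer cells. Of 12 mesenchymal markers 4 rose and 0 fell, namely VIM (2.49), ZEB1 (1.34), SNAI2 (0.90) and FN1 (0.90), and the list's median was 0.10. SNAI2 and 4 others of the 12 lay below 3 on all arrays, and ZEB1 read 1.58 on both control arrays, so the sizes of these 2 differences depend on how background was handled. SPARC (-0.42) and ZEB2 (-0.26) read lower without overlap but did not pass (limma adjusted p = 0.139 and 0.138). SNAI1 (0.25, with overlap) and TWIST1 (0.16, without overlap) read higher and did not pass either (limma adjusted p = 0.394 and 0.223). ZEB2 and TWIST1 were among those below 3 on all arrays. CDH2, COL1A1, COL1A2 and COL3A1 differed by -0.05 to 0.04. The list's mean log2 level was 2.91 and 2.84 for control and 3.31 and 3.33 for LLGL1 shRNA. The DPYD difference of -1.63 had the opposite sign to the 4 that rose. A link between DPYD and these markers was not tested. Myeloid markers, of a cell type with much DPYD and TYMP, had mean log2 levels of 2.48 and 2.49 for control and 2.56 and 2.55 for LLGL1 shRNA.

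The genes whose values over the 4 arrays were most like those of DPYD were found by the root mean square distance between log2 values, each gene centred on its own mean. They were HAS2 (distance 0.0694), NDRG1 (0.0765), IGFL1 (0.0913), LIPG (0.119) and LEMD1 (0.129). Their log2 differences ran from -1.55 for HAS2 to -1.44 for LEMD1. With 4 arrays in 2 groups, this measure mostly ranks genes by how close their difference is to that of DPYD.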

How the data were processed

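Total RNA, 100 ng per sample, was labelled as biotinylated cRNA and hybridised to Affymetrix arrays, per the labels' protocols. The authors deposited log2 signals of 54675 probe sets on 4 arrays, made with RMA and Partek 6.6 per the submitters' processing notes. The sources used here do not give the order and settings of these steps, background correction included. A second deposited table holds the authors' ratio, signed fold score and p-value for 294 probe sets, per the file headers. Its ratios matched the value table within 1.68e-05 on the log2 scale, which fixes scale and direction.

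Probe sets were named from the array annotation: 41091 carry 1 symbol, 1801 several and 11721 none, besides 62 control probe sets. Each of 19775 genes took its highest-mean probe set. Groups were compared with limma 3.58.1 (lmFit, eBayes, R 4.3.3), two-sided, with Benjamini-Hochberg adjustment over all genes at 0.05. Residual degrees of freedom were 2 and prior ones 1.94, and the number of arrays limits the precision. The procedure was checked on simulated data. Alternatives were the mean of a gene's probe sets, median centring, cyclic loess, trend and robust priors, a filter at a mean log2 of 5, the replicate number as a block and leaving out each array.

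The members and the gene lists were chosen with earlier results of these data known. Besides DPYD, the listed genes NT5E, VIM, ZEB1, KRT7 and FGB are in the authors' table of 294 probe sets. Genes are named by rule: LLGL1, all members, each passing gene of the other pyrimidine lists, the 3 S phase genes with the largest differences, passing factors linked to DPYD and the 5 genes most like DPYD. Others were named after their values were seen. Listed genes without a gene value were not analysed here. Promoter sequences are from RefSeq, build GRCh38.p14.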

Additional observations from a re-analysis of the deposited data

How the results depend on the processing

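DPYD was listed for its known difference, and both its control values lay above both others. Leaving out an array could therefore not turn the sign, and the priors and the block leave a difference unchanged. DPYD kept its direction under each alternative that gave a value. Its log2 difference was -1.63 after median centring and cyclic loess, -0.70 when its probe sets were averaged and -1.70 to -1.55 without any 1 array, and the filter at a mean log2 of 5 removed it, DPYS, UPB1, TYMP and CMPK2, among others. Of the 8 other members 2 passed, 1 with the mean of probe sets and 3 after cyclic loess, with trend and robust priors or among the 5 left by the filter. The 10 other pyrimidine genes became 17 after cyclic loess, 23 with trend and robust priors and 22 with the filter, and all genes went from 1242 to 1881 (median centring), 2096, 3935 and 3939. Single probe sets went from 341 to 2443 (cyclic loess) and 5946 (trend and robust priors). In limma fits without any 1 array, 0 to 0 passed among all genes, probe sets, members, other pyrimidine genes and S phase genes (3496 to 4546 genes at an unadjusted p under 0.05). With 1 residual degree of freedom, and the single remaining array assumed to vary as the other group does, these fits say nothing about single calls. TK1 differed by 0.50 to 0.58 and UMPS by 0.39 to 0.42 in them.

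The replicate numbers are shared between the groups, but no label says that they mark a shared culture or day, and the deviations of same-numbered arrays correlated at -0.13 across genes. With the replicate block, limma passed 0 of 19775 genes (4284 at an unadjusted p under 0.05), 0 of 41091 probe sets (7487), 0 of the 8 members (3), 0 of the 58 other pyrimidine genes (24) and 0 of 38 S phase genes (33). That fit has fewer residual degrees of freedom, and its lowest adjusted p was 0.0945.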
